A study of Nicotiana tabacum with 60 samples.

Results

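The tobacco chloroplast reading frames *psaI*, *ycf4* and *cemA* were followed in ribosome footprints and RNA of 7 photosynthesis mutants and 3 control lines. The members were chosen by position and name, as the 3 rows of the count tables that lie between *accD* and *petA*, and they are 3 of the 78 chloroplast reading frames listed. Relative to the other chloroplast reading frames, *ycf4* footprints were called higher in 6 of 7 mutants, whereas *psaI* and *cemA* footprints were each called higher in 2 of 7. RNA of *ycf4* and of *cemA* was called higher in 6 of 7 mutants each and that of *psaI* in 2 of 7. Among the values of all genes over the 7 comparisons, 19.9% were called higher and 15% lower in footprints. In RNA these shares were 32.1% and 26.2%. No member was called lower in footprints or in RNA in any mutant against its own control in edgeR, where 1 footprint value and 0 RNA values lay below 0 at an unadjusted p under 0.05, and DESeq2 called 1 footprint value lower (*psaI* in as-*ATPC*). Against a second control line, in contrast, *ycf4* footprints were called higher in 0 of the 5 mutants compared with pRB8c, with 3 of 5 at an unadjusted p under 0.05.

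As background, chloroplast genes of land plants lie in clusters that are transcribed together, and several reading frames of 1 transcript are translated separately, so that neighbours can carry different numbers of ribosomes on the same RNA. *psaI*, *ycf4*, *cemA* and *petA* form such a tetracistronic unit. *psaI* encodes a small membrane subunit of photosystem I, which is not essential in tobacco. *ycf4* encodes an assembly factor of photosystem I that is no part of the finished complex, and tobacco without it still makes some photosystem I. *cemA* encodes a protein of the inner envelope membrane and is not essential either. *petA*, the last gene of the unit, encodes cytochrome *f*, a core subunit of the cytochrome *b*6*f* complex, and *accD*, upstream of *psaI*, encodes a subunit of the acetyl-CoA carboxylase of fatty acid synthesis.

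Each line had 3 Ribo-seq and 3 RNA-seq libraries, 60 in all, from leaf tissue of *Nicotiana tabacum*, for which the labels give the cultivar Petit Havana throughout, the wild type SNN included. Of the transplastomic knockouts, Δ3'-*psbD* carries the resistance marker *aadA* in place of the end of *psbD* and the start of *psbC*, and Δ*psbJ* lacks a small subunit gene of photosystem II. Δ*petB*/*D* lacks *petB* and the start of *petD* together with the photosystem II genes *psbB*, *psbT*, *psbN* and *psbH*, and Δ*petN* lacks a small subunit gene of the cytochrome *b*6*f* complex. Δ*psaB* carries a frameshift in a core subunit gene of photosystem I and is represented by a pair of alleles. Δ*atpB* carries *aadA* within the ATP synthase genes *atpB* and *atpE*, and as-*ATPC* is a nuclear antisense line against the γ subunit of the ATP synthase. The control of Δ*psaB* was RB70 and that of the other transplastomic knockouts pRB8c, both transplastomic lines that carry *aadA* as well, and as-*ATPC* was set against the wild type SNN. Because 5 mutants share the 3 pRB8c samples of a kind, any deviation of those samples enters all 5 comparisons. The labels give growth on sucrose medium for every sample, up to a seedling stage of 4 leaves, and the methods give soil for as-*ATPC* and SNN.

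The reading-frame counts of a library were between 31328 and 5331355 in Ribo-seq and between 1029393 and 14748697 in RNA-seq. The 6 RNA-seq libraries of RB70 and Δ*psaB* stood apart from the other 24. Their reading-frame counts came to 95.5% to 114% of the reads mapped to the chloroplast, against 71.3% to 87.0% elsewhere, and they were the shallowest. The hit genes *psbC*, *psbJ*, *petB*, *petN* and *atpB* had log2 changes between -13.58 and -2.84 in RNA and between -7.42 and -5.50 in footprints of their own mutants. In Δ*psaB* the frameshift left *psaB* RNA at a log2 change of -0.02 and *psaB* footprints at -1.45, not called (adjusted p = 0.0632, edgeR). An absent call in Δ*psaB* therefore does not show an absent change. In Δ*atpB* the RNA of *atpE* stood at 0.11 and its footprints at -1.64. In Δ3'-*psbD* the truncated *psbD* stood at -1.12 in RNA and at -0.99 in footprints, the latter not called (adjusted p = 0.0128, edgeR). The target of as-*ATPC* is a nuclear gene and was not analysed here. In these bulk leaf samples fewer chloroplasts or cells of a kind and less RNA per chloroplast cannot be told apart.

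All 3 members lie on the + strand. The stretches counted in Ribo-seq, which start 10 nucleotides into a reading frame and stop 30 nucleotides before its end, run from position 62098 to 62168 for *psaI*, from 62653 to 63167 for *ycf4* and from 63430 to 64079 for *cemA*. The whole reading frames hold 37, 185 and 230 codons with the stop codon. The gap between reading frames is 751 nucleotides from *accD* to *psaI*, 444 from *psaI* to *ycf4*, 222 from *ycf4* to *cemA* and 230 from *cemA* to *petA*. The counted stretch of *psaI* is only 71 nucleotides long, against 515 for *ycf4* and 650 for *cemA*. The nearest gene hit in any mutant is *psbJ*, on the opposite strand, with 2298 nucleotides between its counted stretch and that of *cemA*. *atpB* lies before *psaI*, also on the opposite strand, with 5345 nucleotides between the counted stretches.

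Translation output differed widely among the 3 cistrons. Levels are given per kb of counted length and per 1000000 reads of reading frames after TMM scaling over all libraries of a kind, a scaling that compares each library with the bulk of chloroplast genes. In pRB8c the mean footprint level was 6733 ± 1537 for *psaI*, 1687 ± 77.8 for *ycf4* and 263 ± 56.7 for *cemA* (SD, n = 3). The RNA level of the same line was 3341 ± 425, 1498 ± 225 and 911 ± 162 (SD, n = 3), so footprints and RNA had the same order, with a far wider span in footprints. Footprints over RNA, the ratio of the mean levels, lay between 2.02 and 12.8 for *psaI* over the 10 lines, between 0.717 and 1.56 for *ycf4* and between 0.0514 and 0.831 for *cemA*. These 3 ranges did not overlap for *psaI* against *ycf4*, and those of *ycf4* and *cemA* overlapped only through as-*ATPC*, where the ratio of *cemA* was highest. Across lines the highest mean footprint level was 4.35 times the lowest for *psaI*, 2.72 times for *ycf4* and 12.1 times for *cemA*.

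**Figure D1:**
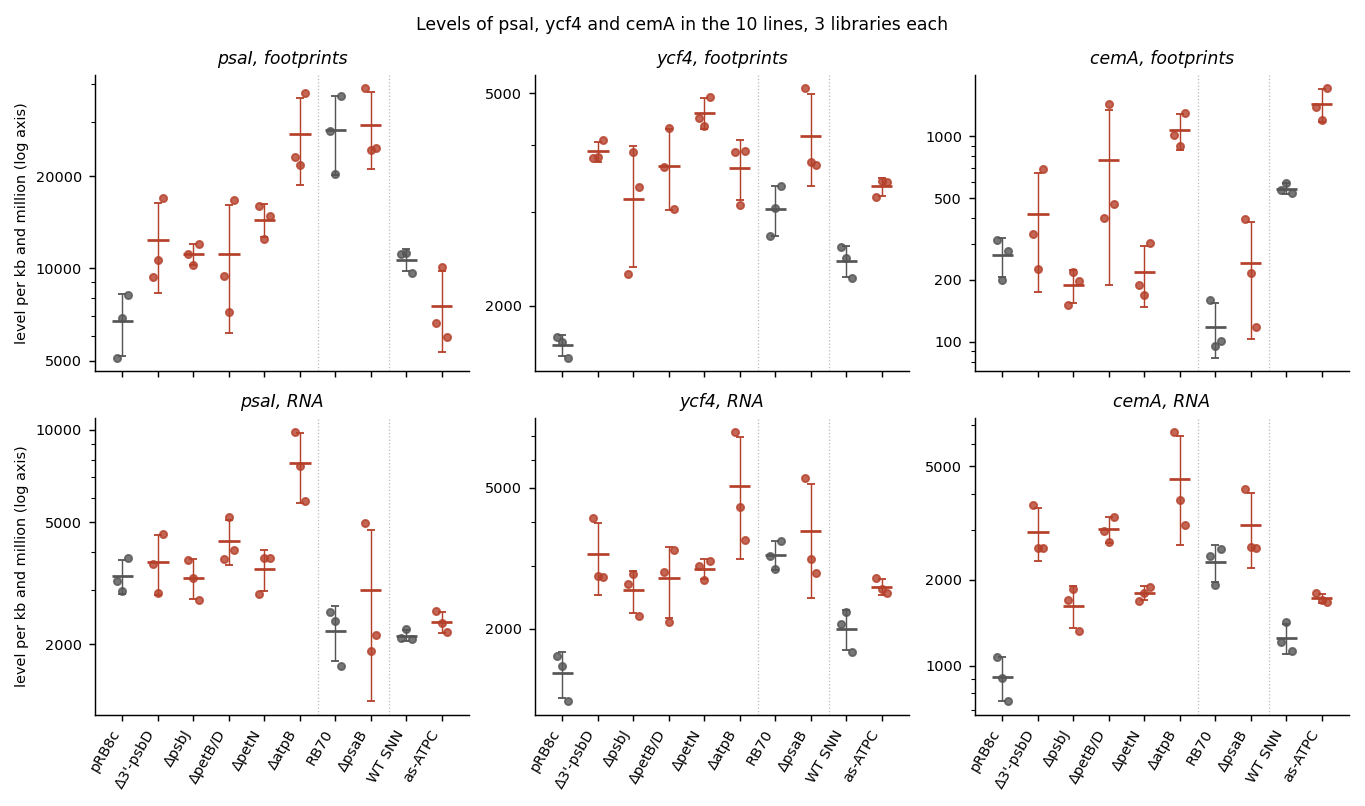
Footprint and RNA levels of *psaI*, *ycf4* and *cemA* per kb and per 1000000 reads (TMM-scaled, log axes) in the 10 lines, with each point 1 library and the bar the mean of 3. *ycf4* footprints of pRB8c, between 1601 and 1751, lie below those of every other line, and the mean of *cemA* footprints is highest in as-*ATPC*, with libraries between 1196 and 1719.

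*ycf4* was the member with the most calls in translation output. In pRB8c its footprint level was 1751, 1710 and 1601 in the 3 libraries. Among mutants of photosystem II it was 3791, 3802 and 4088 in Δ3'-*psbD* and 2293, 3883 and 3346 in Δ*psbJ*. In Δ*petB*/*D* it was 3633, 4301 and 3044. In Δ*petN* it was 4501, 4348 and 4931 and in Δ*atpB* 3884, 3087 and 3894. All 15 libraries of these 5 mutants lay above all 3 of pRB8c. The RB70 libraries had 2698, 3046 and 3353 and those of Δ*psaB* 5115, 3716 and 3672, and SNN had 2579, 2457 and 2254 against 3198, 3429 and 3418 in as-*ATPC*. The groups did not overlap in any of the 7 comparisons. Over all genes, footprint groups did not overlap in 45.5% of the tested genes in Δ*psbJ*, in 41.6% in Δ*psaB* and in 55.8% in as-*ATPC*. That share was 61% in both Δ3'-*psbD* and Δ*petB*/*D*, 66.2% in Δ*petN* and 79.2% in Δ*atpB*.

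The fitted log2 change of *ycf4* footprints was 1.11 ± 0.13 (SE) in Δ3'-*psbD*, with an adjusted p of 0.00227 by the quasi-likelihood test of edgeR, in a comparison that called 11.7% of the 77 tested genes higher. It was 0.91 ± 0.21 in Δ*psbJ* (adjusted p = 0.00756 in the same test, 7.79% of genes called higher) and 1.03 ± 0.18 in Δ*petB*/*D* (adjusted p = 0.00339, 13% of genes). The largest changes were 1.33 ± 0.15 in Δ*petN* (adjusted p = 7.03e-05, 26% of genes) and 1.47 ± 0.18 in Δ*atpB* (adjusted p = 5.77e-05, 44.2% of genes). In as-*ATPC* the change was 0.60 ± 0.09 (adjusted p = 3.05e-05, 36.4% of genes). In Δ*psaB* the change of 0.61 ± 0.29 did not pass the test (adjusted p = 0.160), and there edgeR called 0% of genes higher (0 of 77 in either direction, 27 at an unadjusted p under 0.05, and 14 called by DESeq2). A gene counts as called where its adjusted p was 0.01 or below. Over the 7 comparisons 19.9% of the values of all genes were called higher and 15% lower, against 10 higher and 0 lower of 21 values of the 3 members.

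Leaving out any pRB8c library or Δ3'-*psbD* replicate 1 ended the *ycf4* footprint call in Δ3'-*psbD*, with log2 changes between 1.06 and 1.29 over the 6 omissions and a highest adjusted p of 0.0167 (edgeR). In Δ*psbJ* the call was lost on leaving out any pRB8c library, replicate 2 or replicate 3 (changes between 0.74 and 1.11, highest adjusted p of 0.0370 in edgeR). In Δ*petB*/*D* it was lost without pRB8c replicate 2 or 3 or mutant replicate 1 or 2 (changes between 0.90 and 1.21, highest adjusted p of 0.0195 in edgeR). The calls in Δ*petN*, Δ*atpB* and as-*ATPC* held under each such omission.

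RNA of *ycf4* had a log2 change of 1.43 ± 0.20 (SE) in Δ3'-*psbD* (adjusted p = 9.10e-09, edgeR), with levels of 4103, 2815 and 2808 against 1678, 1570 and 1246 in pRB8c. In Δ*atpB* the change was 1.51 ± 0.22 (adjusted p = 0.000140), with levels of 7205, 4403 and 3550. The change was 1.12 ± 0.17 in Δ*petB*/*D*, 0.86 ± 0.12 in Δ*petN*, 0.59 ± 0.17 in Δ*psbJ* and 0.35 ± 0.10 in as-*ATPC*, with adjusted p-values in edgeR between 6.73e-07 and 0.00116. In Δ*psaB* it was 0.13 ± 0.21 (adjusted p = 0.667). RNA calls were common in these comparisons. Among all tested genes 41.6% were called higher in both Δ*petB*/*D* and Δ*atpB*, 40.3% in Δ3'-*psbD* and 39% in as-*ATPC*. The shares were 33.8% in Δ*psbJ*, 26% in Δ*petN* and 2.6% in Δ*psaB*. Over the 7 comparisons 32.1% of RNA values of all genes were called higher and 26.2% lower, against 14 higher and 0 lower of 21 for the members. Leaving out pRB8c replicate 1 or 3 ended the *ycf4* RNA call in Δ*psbJ* (lowest change 0.43, highest adjusted p of 0.0248 in edgeR), and leaving out replicate 1 of SNN or of as-*ATPC* ended that in as-*ATPC* (lowest change 0.28, highest adjusted p of 0.0284).

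Footprints of *ycf4* over its RNA were called in 0 of 7 mutants by edgeR and by DESeq2, with 1 of 7 at an unadjusted p under 0.05 in either. The log2 changes of this ratio lay between -0.32 in Δ3'-*psbD* and 0.48 in Δ*psaB*. The smallest adjusted p was 0.0521, in Δ*petN*, where the change was 0.48 with a 95% interval from 0.05 to 0.90 in the interaction fit of edgeR. In Δ*atpB* the interval ran from -0.65 to 0.57. Of the values of all genes, 15.8% were called higher and 13.7% lower in this measure. With RPKM, which are per kb and per 1000000 reads mapped to all 3 genomes, limma on log2(RPKM + 1) called the *ycf4* ratio lower in Δ3'-*psbD* (-1.89, adjusted p = 0.00314) and in Δ*atpB* (-3.33, adjusted p = 6.63e-07), where the medians of all genes were -1.85 and -2.80.

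**Figure D2:**
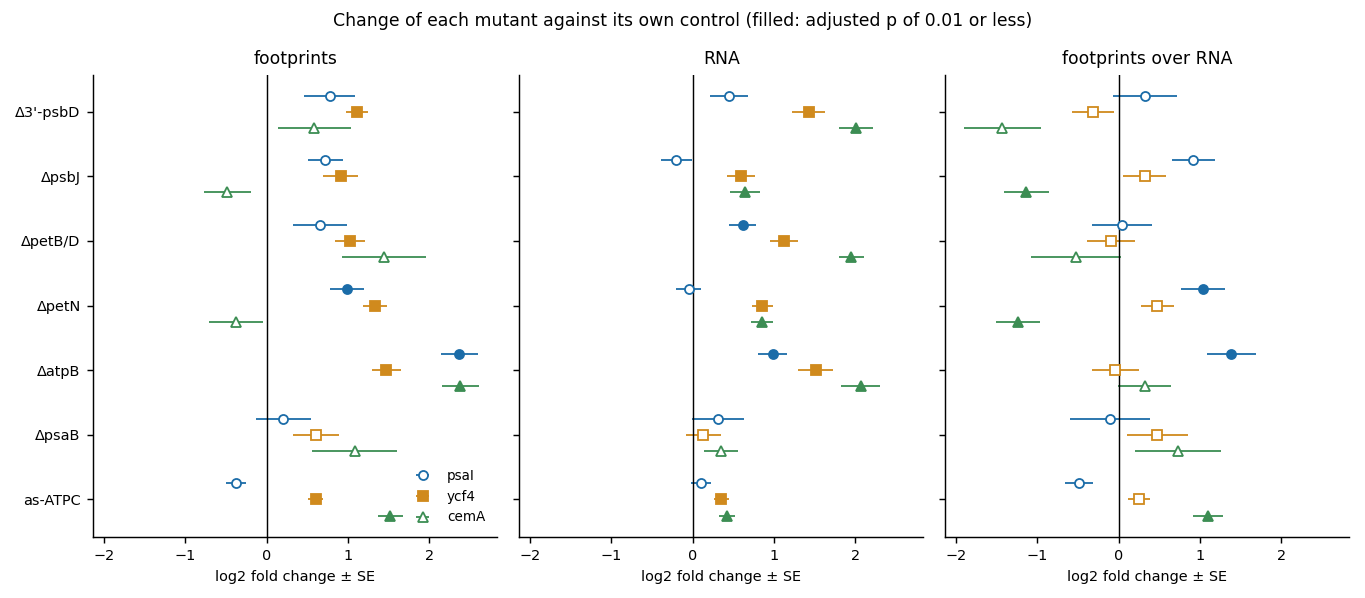
Log2 change of *psaI*, *ycf4* and *cemA* in the 7 mutants, each against its own control, in footprints, RNA and footprints over RNA, with bars of 1 SE and filled points for calls (adjusted p up to 0.01). *ycf4* lies above 0 in footprints and RNA of all 7 mutants and has no call in footprints over RNA, on the TMM scale; per 1000000 reads mapped to all 3 genomes its footprint change in Δ*atpB* is -1.54 and in Δ3'-*psbD* -0.02.

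*psaI* had the highest translation output of the cluster in every line. Its footprint level in pRB8c was 5116, 6906 and 8175. In Δ*atpB* it reached 23089, 21774 and 37402, a log2 change of 2.37 ± 0.23 (SE, adjusted p = 1.33e-05, edgeR) with no overlap between the groups. Footprint groups of 79.2% of all genes did not overlap there. In Δ*petN* the libraries had 15980, 12454 and 14824, a change of 0.99 ± 0.21 (adjusted p = 0.00237 in edgeR, 26% of genes called higher). The other pRB8c mutants also lay above the control mean without passing the threshold. The change was 0.78 ± 0.31 in Δ3'-*psbD*, 0.72 ± 0.22 in Δ*psbJ* and 0.66 ± 0.33 in Δ*petB*/*D*, with adjusted p-values in edgeR of 0.0816, 0.0246 and 0.145. Replicate 2 of Δ*petB*/*D*, with 7224, lay inside the range of pRB8c. Δ*psaB*, with 38790, 24289 and 24799, overlapped RB70, with 27983, 20269 and 36597, and the change of 0.21 ± 0.34 did not pass the test (adjusted p = 0.670).

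In as-*ATPC* the *psaI* footprint level was 6629, 10112 and 5958 against 11156, 11201 and 9656 in SNN. The change of -0.38 ± 0.12 missed the threshold (adjusted p = 0.0120, edgeR). Replicate 2 was the high library, and without it the change was -0.57 (adjusted p = 2.32e-07, edgeR).

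RNA of *psaI* was called higher in Δ*atpB* and in Δ*petB*/*D*, each a comparison that called 41.6% of all genes higher. These 2 of 7 calls stand beside 32.1% of the RNA values of all genes called higher. The levels were 9874, 7652 and 5860 in Δ*atpB* against 3215, 2993 and 3814 in pRB8c, a change of 0.98 ± 0.18 (SE, adjusted p = 0.000635, edgeR). In Δ*petB*/*D* they were 3799, 5195 and 4072, and the change of 0.61 ± 0.16 (adjusted p = 0.00140) was lost on leaving out pRB8c replicate 1 or 2 or mutant replicate 2 (lowest change 0.47, highest adjusted p of 0.0304). Replicate 1 of Δ*petB*/*D* lay inside the pRB8c range. In Δ3'-*psbD* the change was 0.45 ± 0.23 (adjusted p = 0.0734). With the replicate number as a block the change was 0.45 with an adjusted p of 0.00749 (edgeR). That block rests on same-numbered libraries deviating together in these same data and on no label, so it is no separate support. *psaI* RNA in Δ*psbJ*, Δ*petN*, Δ*psaB* and as-*ATPC* had changes between -0.20 and 0.31, none past the threshold. The value in Δ*petN* was -0.05 on the TMM scale and 0.76 with library sizes alone, where the median of all genes moved from -0.06 to 0.75.

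Footprints of *psaI* over its RNA were called higher in Δ*petN* and in Δ*atpB*. The log2 change was 1.04 ± 0.27 (SE) in Δ*petN* (adjusted p = 0.00302, edgeR), where 26% of genes were called higher in this measure, and it was lost without replicate 1 of pRB8c or of Δ*petN* (lowest change 0.80, highest adjusted p of 0.0471). In Δ*atpB* it was 1.39 ± 0.30 (adjusted p = 0.000912, 36.4% of genes called higher), lost without Δ*atpB* replicate 2 or 3 (lowest change 0.88, highest adjusted p of 0.0217). In Δ*psbJ* the value of 0.92 ± 0.27 was close to the threshold (adjusted p = 0.0103, edgeR). With all lines in 1 edgeR fit, which pools the spread of all 10, 0 of the 21 efficiency values of the members were called, with 6 at an unadjusted p under 0.05.

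*cemA* had the lowest translation output and the widest differences between lines. In SNN the footprint level was 550, 593 and 527, from 1529, 727 and 1017 footprints. In as-*ATPC* it was 1384, 1196 and 1719, from 3718, 2435 and 5332 footprints. The change of 1.52 ± 0.15 (SE) had an adjusted p of 5.40e-07 in edgeR and no overlap between the groups. Footprint groups of 55.8% of all genes did not overlap in this comparison. The median depth of Ribo-seq libraries was highest in this pair of lines. In Δ*atpB* the level was 1010, 894 and 1305, from 131, 106 and 137 footprints, against 311, 201 and 278 in pRB8c. That change was 2.38 ± 0.23 (adjusted p = 1.33e-05, edgeR), also without overlap, as for 79.2% of all genes in Δ*atpB*.

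The *cemA* footprint level in Δ*petB*/*D* was 403, 1437 and 466, so replicate 2 stood far above both others, and the change of 1.44 ± 0.52 did not pass the test (adjusted p = 0.0543, edgeR). In Δ3'-*psbD* it was 335, 227 and 694, with replicate 3 the high library and replicate 2 inside the pRB8c range, at a change of 0.58 ± 0.45 (adjusted p = 0.299). Values below the control mean were found in Δ*psbJ*, with 152, 220 and 197 and a change of -0.48 ± 0.29 (adjusted p = 0.225), and in Δ*petN*, with 188, 168 and 302 and a change of -0.38 ± 0.33 (adjusted p = 0.308). Neither passed the test. RB70 had only 18, 13 and 8 *cemA* footprints and Δ*psaB* 15, 26 and 13, so the change of 1.08 ± 0.52 in Δ*psaB* (adjusted p = 0.160, edgeR) had a 95% interval from -0.09 to 2.25 and could not be resolved at this depth.

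*cemA* RNA was called higher in the same 6 mutants as *ycf4* RNA, beside the shares of all genes given there. It had the largest RNA changes of the cluster, with 2.06 ± 0.24 (SE) in Δ*atpB*, 2.01 ± 0.21 in Δ3'-*psbD* and 1.95 ± 0.16 in Δ*petB*/*D*, and adjusted p-values in edgeR of 4.62e-05, 3.74e-13 and 1.31e-12. The RNA level was 1077, 903 and 754 in pRB8c. It was 6620, 3803 and 3120 in Δ*atpB*, 3668, 2586 and 2596 in Δ3'-*psbD* and 2960, 2720 and 3335 in Δ*petB*/*D*. All 9 of these libraries lay above the pRB8c range, in comparisons where the RNA groups of 84.4%, 75.3% and 76.6% of all genes did not overlap. Smaller changes of 0.86 ± 0.14 in Δ*petN*, 0.64 ± 0.18 in Δ*psbJ* and 0.42 ± 0.10 in as-*ATPC* also passed the threshold, with adjusted p-values in edgeR of 9.04e-05, 0.000831 and 0.000260. That in Δ*psbJ* was lost without pRB8c replicate 3 (0.48, adjusted p = 0.0145), and that in as-*ATPC* without replicate 1 of either line (lowest change 0.37, highest adjusted p of 0.0162). In Δ*psaB* the change was 0.35 ± 0.20 (adjusted p = 0.256).

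Footprints over RNA of *cemA* moved in both directions among the mutants. The log2 change was 1.10 ± 0.19 (SE) in as-*ATPC* (adjusted p = 2.60e-05, edgeR, with 23.4% of genes called higher). It was -1.24 ± 0.27 in Δ*petN* (adjusted p = 0.000874, 22.1% of genes called lower) and -1.13 ± 0.28 in Δ*psbJ* (adjusted p = 0.00344, 16.9% called lower), in both of which the RNA change was called higher and the footprint change lay below 0. The call in Δ*psbJ* was lost without replicate 1 or 3 of pRB8c or of Δ*psbJ* (changes between -1.27 and -0.94, highest adjusted p of 0.0201). In Δ3'-*psbD* the value of -1.43 ± 0.48 was not called (adjusted p = 0.0353), and without replicate 3 it was -1.97 (adjusted p = 0.000231). In Δ*petB*/*D* it was -0.52 ± 0.55 (adjusted p = 0.440) and, without replicate 2, -1.39 (adjusted p = 0.00576). In Δ*atpB* the value was 0.32 ± 0.32 (adjusted p = 0.402). Over the 3 members 3 of 21 values were called higher and 2 lower, against 15.8% and 13.7% of the values of all genes. In contrast, limma on log2(RPKM + 1) called 0 higher and 9 lower. The medians of all genes lay between -2.80 and -0.23 on that scale, and its share of all genes called is not given here.

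In Δ*atpB* the chloroplast share of mapped footprint reads was 3.00% to 4.79%, against 22.4% to 27.5% in pRB8c. The part of this share in the results was not tested. Relative to other chloroplast genes all 3 members were called higher in footprints of Δ*atpB*, whereas per 1000000 reads mapped to all 3 genomes, on the log2(RPKM + 1) scale, the changes were -0.63 for *psaI*, -1.54 for *ycf4* and -0.59 for *cemA*, beside a median of -2.62 over all genes. Footprints over RNA were -1.93 for *psaI*, -3.33 for *ycf4* and -2.93 for *cemA* on that scale, all called lower, beside a median of -2.80. In Δ3'-*psbD*, where the median moved to -1.10 on that scale, the change of *ycf4* footprints was -0.02. RNA of all 3 members kept its direction in Δ*atpB* on that scale.

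Ratios of neighbouring cistrons within a library do not depend on how libraries are scaled. The ratio of *cemA* to *ycf4* footprints per length was 0.178, 0.117 and 0.173 in pRB8c. It was 0.0418, 0.0388 and 0.0613 in Δ*petN* and 0.0662, 0.0566 and 0.0589 in Δ*psbJ*, so both mutants lay below the control in every library. The log2 difference was -1.73 ± 0.25 (SE) in Δ*petN* (3.32-fold lower, adjusted p = 0.000430, limma over 76 neighbouring pairs, of which 18.4% were called lower). In Δ*psbJ* it was -1.35 ± 0.23 (adjusted p = 0.00359, 9.21% of pairs called lower) and was lost without pRB8c replicate 1 or 3 or Δ*psbJ* replicate 2 or 3 (changes between -1.54 and -1.24, highest adjusted p of 0.0238). The RNA ratio of the same pair showed no such difference. It was 0.564, 0.656 and 0.609 in Δ*petN* and 0.639, 0.648 and 0.607 in Δ*psbJ* against 0.642, 0.575 and 0.605 in pRB8c, with log2 differences of 0.00 ± 0.10 and 0.06 ± 0.08 (95% intervals from -0.23 to 0.24 and from -0.14 to 0.25). With RB70 as the control the footprint ratio turned to 0.22 in Δ*petN* and 0.61 in Δ*psbJ*, neither called (adjusted p = 0.580 and 0.157, limma).

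In as-*ATPC* the *cemA* to *ycf4* footprint ratio was 0.433, 0.349 and 0.503 against 0.213, 0.242 and 0.234 in SNN, a log2 difference of 0.88 ± 0.14 (SE, adjusted p = 0.00124, limma, 26.3% of pairs called higher). The *ycf4* to *psaI* footprint ratio was also higher there, with 0.482, 0.339 and 0.574 against 0.231, 0.219 and 0.233 and a log2 difference of 1.00 ± 0.18 (adjusted p = 0.00245), lost without as-*ATPC* replicate 1 (adjusted p = 0.0110). Further along the unit, the *petA* to *cemA* footprint ratio was lower in as-*ATPC* by a log2 difference of -1.95 ± 0.22 (adjusted p = 0.000385, 30.3% of pairs called lower), with 2.82, 4.13 and 2.19 against 12.3, 10.4 and 11.5. In Δ*atpB* the *petA* to *cemA* ratio was 2.52, 2.90 and 2.96 against 8.33, 11.2 and 9.62 in pRB8c, a difference of -1.79 ± 0.22 (adjusted p = 0.000502, 21.1% of pairs called lower). Over the 7 comparisons and the 3 pairs of cistrons, 2 of 21 footprint ratios were called higher and 4 lower, against 12.8% and 14.1% of all neighbouring pairs. Those pairs also include genes of different transcripts and of opposite strands.

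In RNA the ratio of *cemA* to *ycf4* was higher in 3 mutants. It was 0.894, 0.919 and 0.925 in Δ3'-*psbD*, 1.02, 1.31 and 0.999 in Δ*petB*/*D* and 0.919, 0.864 and 0.879 in Δ*atpB*, all above the pRB8c range of 0.575 to 0.642. The log2 differences were 0.59 ± 0.10 (SE), 0.86 ± 0.15 and 0.55 ± 0.08, with adjusted p-values in limma of 0.00131, 0.000833 and 0.00167, in comparisons with 30.3%, 27.6% and 28.9% of pairs called higher. That in Δ*atpB* was lost without Δ*atpB* replicate 2 (adjusted p = 0.0112). Against RB70 the differences were 0.36, 0.63 and 0.32 and none was called (adjusted p = 0.0484, 0.0123 and 0.0609, limma).

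The *petA* to *cemA* RNA ratio was the pair with the most calls, lower in 6 of 7 mutants. In pRB8c it was 1.98, 2.44 and 2.76. The ratio lay between 0.887 and 1.11 in the 9 libraries of Δ3'-*psbD*, Δ*petB*/*D* and Δ*atpB*, with log2 differences of -1.28 ± 0.14, -1.38 ± 0.15 and -1.17 ± 0.15 (SE, limma). It lay between 1.51 and 1.71 in the 6 libraries of Δ*psbJ* and Δ*petN*, and their differences of -0.58 ± 0.13 and -0.55 ± 0.13 were lost on leaving out several single libraries (highest adjusted p of 0.0316 and 0.0172). In as-*ATPC* the ratio was 1.63, 1.71 and 1.60 against 2.25, 2.04 and 2.24, a difference of -0.40 ± 0.06 (adjusted p = 0.00254), lost in 4 of 6 omissions (highest adjusted p of 0.0164). RB70, with 1.17, 1.46 and 1.05, overlapped Δ*psaB*, with 1.02, 1.09 and 1.08. With RB70 in place of pRB8c no call of the other 5 mutants was kept, as the difference turned to 0.39 in Δ*psbJ* and 0.42 in Δ*petN* and was -0.32 in Δ3'-*psbD*, -0.41 in Δ*petB*/*D* and -0.21 in Δ*atpB* (adjusted p-values in limma between 0.0336 and 0.311). Of all neighbouring pairs in RNA 28.9% were called lower in both Δ3'-*psbD* and Δ*petB*/*D*, 26.3% in Δ*petN*, 25% in Δ*psbJ* and 23.7% in Δ*atpB*, against 18.4% in as-*ATPC* and 6.58% in Δ*psaB*.

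The RNA ratio of *ycf4* to *psaI* was called higher only in Δ*petN*, at 1.03, 0.721 and 0.812 against 0.522, 0.525 and 0.327, a log2 difference of 0.92 ± 0.20 (SE, adjusted p = 0.00200, limma), lost without Δ*petN* replicate 1 (adjusted p = 0.0203), where 27.6% of pairs were called higher. Against RB70 it turned to -0.81 (adjusted p = 0.0141, limma). The differences of 0.96 in Δ3'-*psbD* (adjusted p = 0.0144) and 0.80 in Δ*psbJ* (adjusted p = 0.0104) were of like size but were not called. With the replicate number as a block, a pairing seen only in these data, the value in Δ3'-*psbD* had an adjusted p of 0.000301 (limma). Of 21 RNA ratios 4 were called higher and 6 lower, against 22.4% and 22.6% of all neighbouring pairs. An exact permutation test of each of the 42 ratios, which cannot go below a two-sided p of 0.1 with 3 libraries against 3, gave a smallest adjusted p of 0.175.

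**Figure D3:**
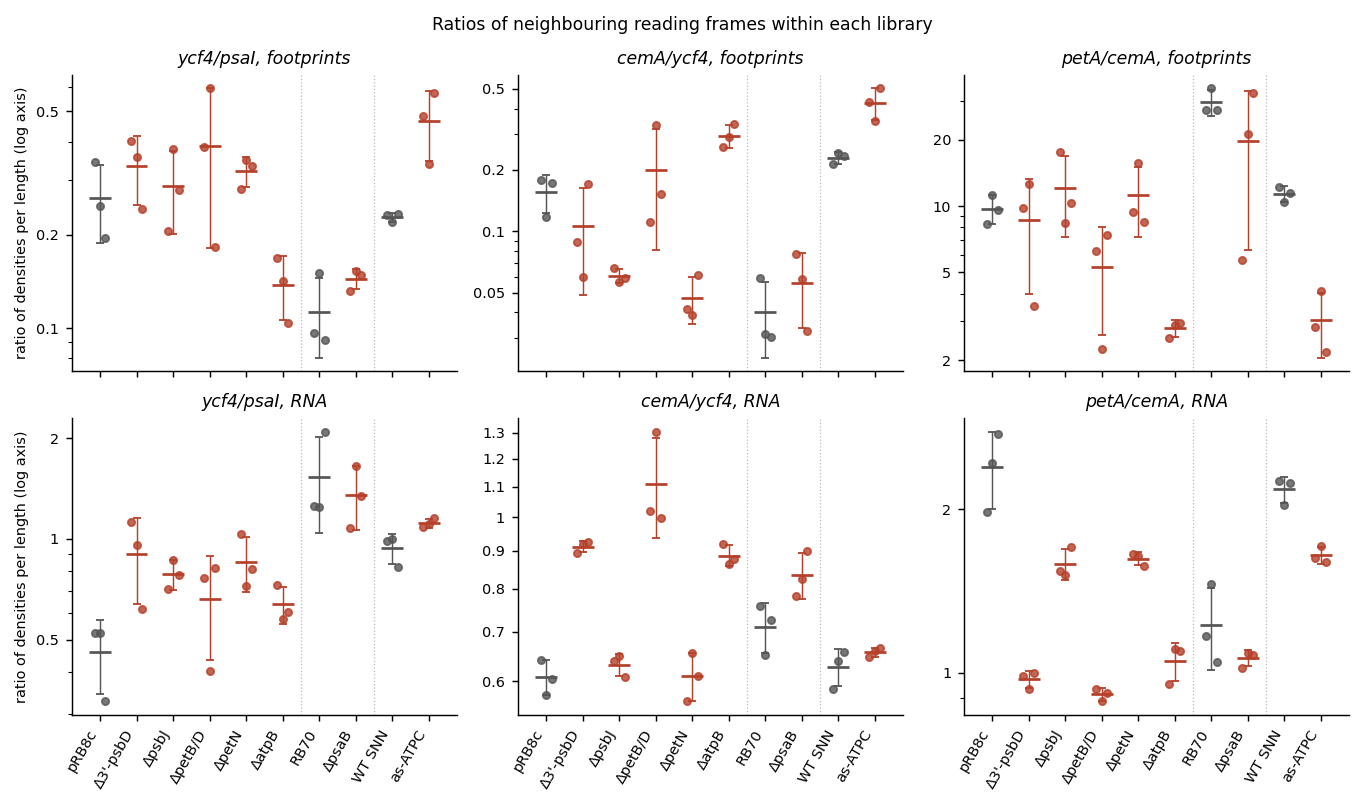
Ratios of neighbouring cistrons per length (log axes) in footprints and RNA of the 10 lines, each point 1 library. In footprints *cemA* over *ycf4* lies below pRB8c in all libraries of Δ*psbJ* and Δ*petN*, and in RNA *petA* over *cemA* is between 1.98 and 2.76 in pRB8c and between 0.887 and 1.11 in Δ3'-*psbD*, Δ*petB*/*D* and Δ*atpB*.

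Along the stretch from *accD* to *petA* the RNA changes differed from gene to gene. Of the 5 genes *psaI* had the lowest value in 3 mutants (Δ3'-*psbD*, Δ*psbJ* and Δ*petN*), *petA* in 3 (Δ*petB*/*D*, Δ*atpB* and as-*ATPC*) and *ycf4* in Δ*psaB*. In Δ3'-*psbD* the log2 change in RNA was 1.98 for *accD*, 0.45 for *psaI*, 1.43 for *ycf4*, 2.01 for *cemA* and 0.74 for *petA*. In Δ*petB*/*D* the values in this order were 1.88, 0.61, 1.12, 1.95 and 0.60, and in Δ*atpB* they were 1.56, 0.98, 1.51, 2.06 and 0.88. All of these but that of *psaI* in Δ3'-*psbD* passed the test (edgeR), in comparisons that called 40.3%, 41.6% and 41.6% of all genes higher. The changes in footprints followed another order. In Δ*atpB* they were 3.01 for *accD*, 2.37 for *psaI*, 1.47 for *ycf4*, 2.38 for *cemA* and 0.61 for *petA*, each past the threshold, beside 44.2% of all genes called higher. In as-*ATPC* they were 0.53, -0.38, 0.60, 1.52 and -0.47, with *accD*, *ycf4* and *cemA* called higher, *petA* called lower and *psaI* not called. Of all genes 36.4% were called higher and 22.1% lower there. *accD* RNA was called higher in 6 of 7 mutants and *petA* RNA in 4 of 7, against 32.1% of the RNA values of all genes.

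**Figure D4:**
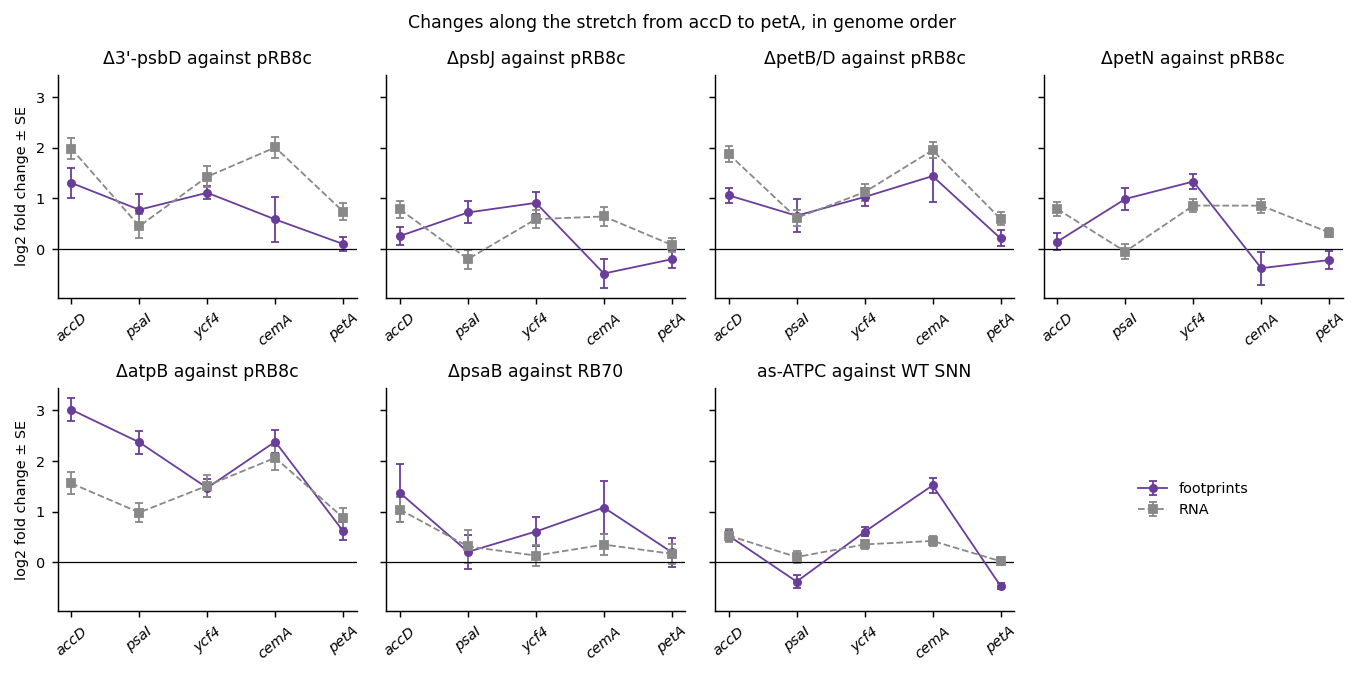
Log2 change of *accD*, *psaI*, *ycf4*, *cemA* and *petA*, in genome order, in footprints and RNA of each mutant against its own control, on the TMM scale, with bars of 1 SE. In RNA of Δ3'-*psbD*, Δ*petB*/*D* and Δ*atpB* *cemA* is at 1.95 to 2.06 and *petA* at 0.60 to 0.88; per 1000000 reads mapped to all 3 genomes the footprint changes of *psaI*, *ycf4* and *cemA* in Δ*atpB* are below 0.

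Few of the other photosystem I genes were called higher in translation output. The list, chosen with results of these data known, held *psaA*, *psaB* and *psaC* (core and iron-sulfur subunits), *psaJ* (a small subunit), *ycf3* (an assembly factor), *psaI* and *ycf4*. In footprints of Δ3'-*psbD* 1 of 7 was called higher (*ycf4*) and 3 lower (*psaA* at -1.32, *psaB* at -0.85 and *ycf3* at -1.06), with a median log2 change of -0.49 against 0.02 over all genes, of which 13% were called lower. In Δ*atpB* 3 were called higher (*psaI*, *ycf4* and *psaJ* at 1.72) and 2 lower (*psaA* at -0.98 and *psaB* at -0.65), with a median of -0.32 against 0.36 and 23.4% of all genes called lower. In Δ*petN* 2 were called higher (*psaI* and *ycf4*) and 1 lower (*ycf3* at -1.18), and in as-*ATPC* 2 were called higher (*ycf4* and *ycf3* at 0.47) and 1 lower (*psaC* at -0.54), beside 22.1% of all genes called lower in either mutant. In Δ*psbJ* *ycf4* was the 1 gene called higher and *psaA*, at -0.80, the 1 called lower (6.49% of all genes), and in Δ*petB*/*D* *ycf4* and *psaJ*, at 0.60, were called higher. Of all genes, 11.7% were called higher in footprints of Δ3'-*psbD*, 44.2% in Δ*atpB* and 26% in Δ*petN*. The share was 36.4% in as-*ATPC*, 7.79% in Δ*psbJ* and 13% in Δ*petB*/*D*. Over the 7 comparisons 11 of 49 footprint values of this list were called higher and 8 lower, against 19.9% and 15% of all values.

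A second list held the reading frames outside photosynthesis and gene expression, which besides *cemA* are *accD*, *ccsA* (cytochrome *c* maturation), *clpP* (a protease subunit), *ycf1* and *ycf2*. RNA of *accD*, *ycf1*, *ycf2* and *cemA*, 4 of 6, was called higher in each of Δ3'-*psbD*, Δ*petB*/*D*, Δ*atpB* and as-*ATPC*, beside 40.3%, 41.6%, 41.6% and 39% of all genes. Lower calls in these mutants were *ccsA* RNA in Δ3'-*psbD* (-1.28), Δ*petB*/*D* (-1.09) and Δ*atpB* (-1.26) and *clpP* RNA in Δ*petB*/*D* (-0.86) and as-*ATPC* (-0.24). Of the remaining mutants, Δ*psbJ* had *accD* and *cemA* RNA called higher and *ccsA* lower (-1.25), Δ*petN* had *accD*, *ycf2* and *cemA* higher and *ccsA* (-1.97) and *clpP* (-0.34) lower, and Δ*psaB* had *ycf1* higher (1.45). The share of all genes called lower in RNA was 28.6% in Δ3'-*psbD*, 26% in Δ*psbJ*, 20.8% in Δ*petB*/*D*, 42.9% in Δ*petN*, 33.8% in Δ*atpB* and 24.7% in as-*ATPC*. The median log2 RNA change of this list was 1.64 in Δ3'-*psbD*, 1.23 in Δ*petB*/*D*, 1.74 in Δ*atpB* and 0.40 in as-*ATPC*. Over all genes the medians were 0.35, 0.16, 0.15 and 0.10 in the same order. In footprints the 6 genes were all called higher in as-*ATPC*, with a median of 0.62 against 0.10 and 36.4% of all genes called higher. In Δ*atpB* 4 of 6 were called higher (*accD*, *ycf1*, *ycf2* and *cemA*) and *ccsA* lower (-1.19), beside 44.2% and 23.4% of all genes. In Δ*petB*/*D* *accD* and *ycf2* footprints were called higher and those of *ccsA* (-1.40) and *clpP* (-1.67) lower, beside 13% and 18.2% of all genes. Footprints of *ycf2* were called higher (1.99) and those of *clpP* lower (-0.97) in Δ3'-*psbD*, and *clpP* was called lower in Δ*petN* (-1.34). In Δ*psbJ* edgeR called 0 of the 6 in footprints, with 2 at an unadjusted p under 0.05 and 2 called by DESeq2. Over the 7 comparisons 22 of 42 RNA values of the list were called higher and 8 lower, against 32.1% and 26.2% of all values, and 13 of 42 footprint values were called higher and 5 lower, against 19.9% and 15%.

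The cytochrome *b*6*f* genes besides *petA* (*petB*, *petD*, *petG*, *petL* and *petN*) include genes hit in the mutants. In as-*ATPC* 1 of the 6 was called higher in footprints (*petB*) and 3 lower (*petA*, *petD* and *petL*), beside 36.4% and 22.1% of all genes, and in Δ*atpB* 2 were called higher (*petA* and *petB*), beside 44.2%. In Δ*petN* footprints of *petB* (1.83) and *petD* (1.09) were called higher and those of the hit *petN* lower, and in Δ*petB*/*D* the hit *petB* and *petD* were called lower. RNA of *petL* was called higher in Δ3'-*psbD* and Δ*petB*/*D*, and that of *petD* and *petG* in Δ*petB*/*D*, beside *petA* in both and in Δ*petN* and Δ*atpB*. Lower RNA calls fell on *petB* and *petN* in Δ3'-*psbD*, *petD* and *petN* in Δ*psbJ*, *petB* in Δ*petB*/*D*, all of the list but *petA* in Δ*petN*, *petB*, *petD* and *petN* in Δ*atpB*, and *petB* and *petD* in as-*ATPC*. Over the 7 comparisons 5 of 42 footprint values of this list were called higher and 6 lower, against 19.9% and 15% of all values. Of its 42 RNA values 8 were called higher and 15 lower, against 32.1% and 26.2% of all values. The shares of all genes called in footprints and RNA of these mutants are given above.

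Across the means of the 10 lines, *ycf4* and *cemA* RNA had the most similar patterns in the cluster, with Pearson's r = 0.93 of mean log2 levels, and each was the gene nearest to the other. For *ycf4* RNA *rpl36* (0.89) and *petA* (0.89) came next, and for *cemA* RNA *rpl36* (0.89) and *rpl33* (0.89), all genes of ribosomal proteins apart from *petA*. *psaI* RNA was most like *ndhB* (0.87, a subunit of the NDH complex), *rps7* (0.83) and *rpoC2* (0.80, a subunit of the plastid RNA polymerase), and its r with *ycf4* was 0.47. In footprints the likeness within the cluster was lower. *ycf4* had an r of 0.50 with *psaI* and 0.06 with *cemA*, and *psaI* with *cemA* -0.30. The nearest genes in footprints were *rpl36* (0.81), *psaJ* (0.70) and *rps15* (0.68) for *psaI*, *rpl2* (0.76), *rps14* (0.76) and *rps15* (0.74) for *ycf4*, and *rpoB* (0.84), *rps3* (0.82) and *rpoC1* (0.82) for *cemA*. These are descriptions over 10 line means that share controls, depth and scaling.

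The control lines themselves differed at these genes. Mean *psaI* footprint levels were 6733 in pRB8c, 10671 in SNN and 28283 in RB70, and mean *cemA* footprint levels 263, 557 and 119. In order of mean *psaI* footprint level, on the TMM scale, the lines ran from Δ*psaB* (29293), RB70 (28283) and Δ*atpB* (27422), whose libraries overlapped, to Δ*petN* (14419) and on down to pRB8c. All 9 libraries of the first 3 lines lay above the highest of all other libraries. The highest mean *ycf4* level was that of Δ*petN* (4593) and the lowest those of SNN (2430) and pRB8c (1687). All libraries of pRB8c were below those of SNN, whose own range ended below that of RB70. For *cemA* as-*ATPC* (1433) and Δ*atpB* (1070) led, and RB70 came last after Δ*psbJ* (190). Scaled by library totals alone, the order changed. *ycf4* was then highest in Δ*psaB* (6241), Δ*atpB* (5298) and Δ3'-*psbD* (5278), ahead of Δ*petN* (4695), and *cemA* was higher in Δ*atpB* (1543) than in as-*ATPC* (1379). pRB8c remained lowest for *psaI* (4417) and *ycf4* (1105) and RB70 for *cemA* (91.0).

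With RB70 in place of pRB8c as the control of the same 5 mutants, *ycf4* footprints had log2 changes of 0.66 in Δ*atpB*, 0.56 in Δ3'-*psbD*, 0.48 in Δ*petN*, 0.25 in Δ*petB*/*D* and 0.12 in Δ*psbJ*, none of them past the threshold (adjusted p-values in edgeR between 0.0262 and 0.697). *psaI* footprints turned to -1.07 in Δ*petN* (adjusted p = 0.00346) and -1.29 in Δ*psbJ* (adjusted p = 0.00481), and to -1.36 in Δ*petB*/*D* (adjusted p = 0.0149) and -0.98 in Δ3'-*psbD* (adjusted p = 0.0474), which were not called. *psaI* footprints over RNA turned to between -2.46 and -1.82 in all 5 mutants. *cemA* footprints over RNA were 1.27 in Δ*psbJ* (adjusted p = 0.00657) and 0.89 in Δ*petN* (adjusted p = 0.0395), and also 2.14 in Δ*petB*/*D* (adjusted p = 0.0163) and 1.10 in Δ3'-*psbD* (adjusted p = 0.148), all opposite in sign to the values against pRB8c. In Δ*atpB* the value was 2.04 (adjusted p = 0.00118, edgeR), called and of the same sign as against pRB8c. RNA of *ycf4* was called only in Δ*atpB* (1.19, adjusted p = 0.000200), and that of *cemA* was called higher in Δ*atpB* (1.52), Δ3'-*psbD* (0.91) and Δ*petB*/*D* (0.52) and lower in Δ*psbJ* (-0.55, adjusted p = 0.00652). *psaI* RNA was called higher in Δ*atpB* (2.36), Δ3'-*psbD* (1.30), Δ*petB*/*D* (1.11) and Δ*petN* (0.88). Shares of all genes called against RB70 are not given here, so these calls cannot be set beside a background. In Δ*atpB* *cemA* footprints kept their call, at 3.55 (adjusted p = 1.51e-05), and *psaI* footprints, at 0.36 (adjusted p = 0.195), did not. Set against pRB8c in turn, Δ*psaB* gained calls in edgeR. Footprints of *psaI* (2.06, adjusted p = 0.00511) and *ycf4* (1.26, adjusted p = 0.00753) were called higher, with 18 of 77 genes called in either direction. Its *cemA* RNA was called higher too (1.77, adjusted p = 0.00333), and its other footprint and RNA values of the members were not called. RB70 has shallow libraries and RNA-seq counts that stand apart, as given above, and the part of these in the differences was not tested.

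**Figure D5:**
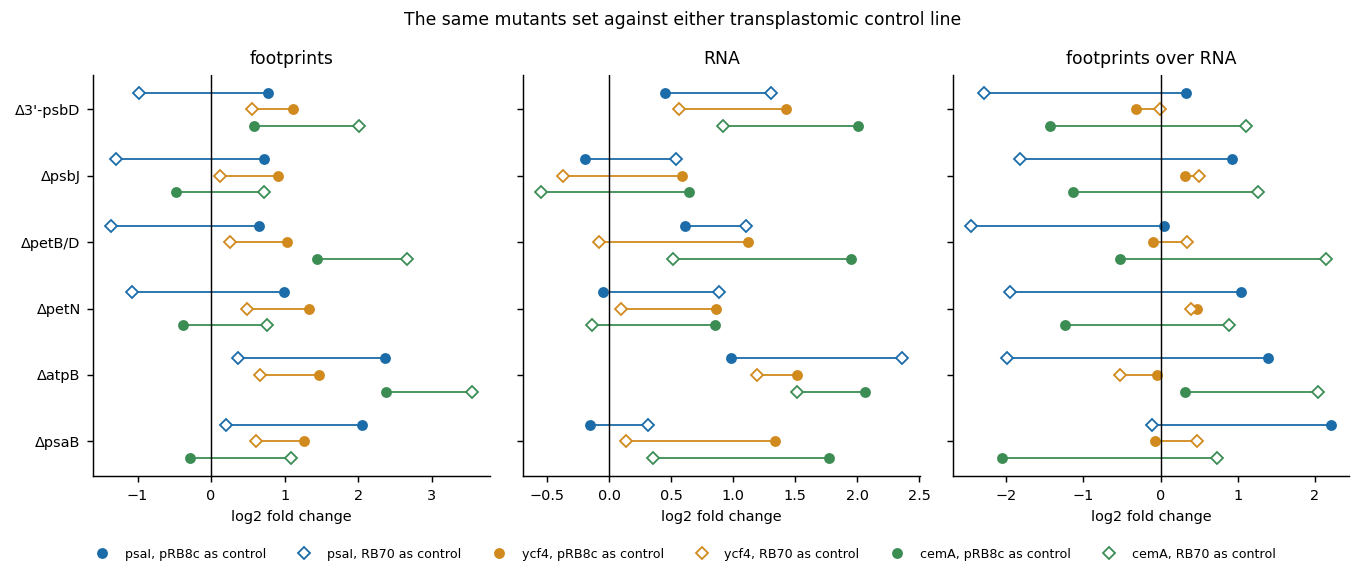
Log2 change of *psaI*, *ycf4* and *cemA* in the 6 transplastomic mutants, with pRB8c (filled) and with RB70 (open) as the control, in footprints, RNA and footprints over RNA. In the 5 mutants usually set against pRB8c, with RB70 *ycf4* footprints lie between 0.12 and 0.66, none past the threshold, and *psaI* footprints over RNA lie between -2.46 and -1.82.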

How the data were processed

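The authors trimmed reads with cutadapt and mapped them with STAR 2.7.1a, with FastQC, SAMtools and bedtools also named in the submitters' processing notes. They deposited whole-number counts of footprints (20 to 39 nucleotides selected) per chloroplast reading frame, less its first 10 and last 30 nucleotides, and estimated counts of RNA-seq reads, of which 94 values of 6 genes were not whole and were rounded here. The authors' percent and read numbers of mapping were used for depth. RPKM deposited by the authors for SNN and as-*ATPC* did not follow from their counts, so RPKM were computed from counts, length and reads mapped to all 3 genomes. All columns of per-sample values were matched to samples, and the deposited RPKM served only for this check. No source used here gives whether counting used strand, and the tables list *cemA* as *ycf10*. Coordinates are those of the deposited Ribo-seq windows.

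Members, lists and tests were chosen with earlier results of these data known. The named genes are the 3 members in every comparison, their neighbours *accD* and *petA*, the photosystem I list and, for each member and kind of library, the 3 genes of highest Pearson correlation over lines; members of the other lists (reading frames outside photosynthesis and gene expression, and cytochrome *b*6*f*) are named where called in footprints or RNA. Of 78 genes 77 passed a filter (10 or more counts in 3 or more libraries of a comparison) and were tested with edgeR 4.0.16 (quasi-likelihood, TMM factors within the mutant and its own control, Benjamini-Hochberg over all tested genes), with calls where the adjusted p was 0.01 or below. Footprints over RNA is the library type by genotype interaction of 1 edgeR model. Ratios of 76 neighbouring pairs were tested with limma 3.58.1 on log2((count + 0.5)/(count + 0.5)). The pairs follow genome order whatever the strand or transcript, always with the gene of higher coordinate on top. Fold changes come from these fits and can differ slightly from ratios of the printed levels, which use TMM factors over all 30 libraries of a kind, a scaling chosen after seeing the data in place of the planned library totals. Intervals cover 95% and are not adjusted. DESeq2 1.42.0, other scalings, filters, pseudocounts, thresholds, control line, replicate block and omission of single libraries were alternatives. The fits were tested on simulated counts. Scripts ran in R 4.3.3 and Python 3.11.15.

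The methods call the samples of a line replicates; where they share a culture p-values measure only the spread between samples. Replicates differed beyond counting noise (smallest chi-square per degree of freedom 9.60 over 60 pairs) and all were counted. Same-numbered mutant and control libraries deviated together, with every r over 0.1, in RNA of Δ3'-*psbD* and of Δ*psaB*, 2 of 14 comparisons. No label pairs them, and whether this many arise by chance was not tested.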

Additional observations from a re-analysis of the deposited data

Results flagged for a closer look

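In 6 cases the effect on a member differed between a pair of mutants of the same complex, by a test of the difference itself in an edgeR fit of all lines with Benjamini-Hochberg adjustment over all genes. Of footprints, the *cemA* effect in Δ*petB*/*D* minus that in Δ*petN* was 1.80 on the log2 scale (SE 0.41, adjusted p = 0.00104, in edgeR), in a contrast that called 20.8% of genes. The *psaI* effect in Δ*atpB* minus that in as-*ATPC* was 2.52 (SE 0.42, adjusted p = 2.04e-05, edgeR, with 45.5% of genes called). Of RNA, the *cemA* effect in Δ3'-*psbD* minus that in Δ*psbJ* was 0.86 (SE 0.23, adjusted p = 0.00260, edgeR, 42.9% of genes), and in Δ*petB*/*D* minus Δ*petN* it was 0.74 (SE 0.23, adjusted p = 0.00879, edgeR, 33.8% of genes). In Δ*atpB* minus as-*ATPC* the RNA difference was 1.36 for *ycf4* (SE 0.34, adjusted p = 0.00178, edgeR) and 1.85 for *cemA* (SE 0.32, adjusted p = 8.50e-05, edgeR, 33.8% of genes). The pairs Δ3'-*psbD* with Δ*psbJ* and Δ*petB*/*D* with Δ*petN* share the pRB8c control, so their differences compare the mutants directly. Δ*atpB* and as-*ATPC* have different controls and, by the methods, different growth, which cannot be told apart from the mutations. Δ*petB*/*D* replicate 2 is the high *cemA* footprint library of its line (1437 against 403 and 466).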

How the results depend on the processing

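The counts of called member values were 10 of 21 in footprints, 14 in RNA, 5 in footprints over RNA and 16 of 42 ratios. All 4 stayed within 1.5 times of these without the filter and with the stricter filter, and so did the first 3 under DESeq2, DESeq2 size factors, library sizes alone, centred log2 counts and TMM without the hit genes, which were not run for ratios. The limma fits on log2(RPKM + 0.1), log2(RPKM + 1) and log2(RPKM + 10) called 6, 6 and 6 in footprints (each 4 higher and 2 lower, against 10 and 0) and 9, 9 and 10 in footprints over RNA (all lower, against 3 higher and 2 lower). Among these was *ycf4* over its RNA in Δ3'-*psbD* (-1.89) and Δ*atpB* (-3.33) at a pseudocount of 1. For footprints over RNA, exchanging pRB8c and RB70 as controls, with as-*ATPC* kept against SNN, gave 10 calls. In the same measure all lines in 1 edgeR fit called 0 (6 at an unadjusted p under 0.05), an adjusted p of 0.05 or less 8 and a 4-fold minimum 0. That minimum left 2 calls in footprints and 2 in RNA. The exact permutation test called 0 ratios, since its smallest possible p is 0.1. Leaving out 1 library gave 7 to 11 calls in footprints, 12 to 14 in RNA, 3 to 6 in footprints over RNA (3 without pRB8c replicate 1) and 14 to 17 ratios. With the replicate block the counts were 10, 15, 6 and 13. By their labels the libraries share only a number. Outside RNA of Δ3'-*psbD* and Δ*psaB* the block changed 11 calls, among them *psaI* footprints in Δ*petN* (1.01, adjusted p = 0.0109, edgeR) and in Δ*psbJ* (0.75, adjusted p = 0.00335).

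Scalings and the control line turned signs. With library sizes alone *psaI* RNA in Δ*petN* was 0.76. With RPKM pseudocounts of 0.1, 1 and 10 it was 0.81, 0.81 and 0.81. In Δ3'-*psbD* these 3 pseudocounts gave -0.023, -0.023 and -0.021 for *ycf4* footprints and -1.28, -1.28 and -1.27 for *psaI* footprints over RNA. In Δ*atpB* they gave -0.63, -0.63 and -0.63 for *psaI* footprints, -1.55, -1.54 and -1.44 for *ycf4* footprints and -0.61, -0.59 and -0.46 for *cemA* footprints. Footprints over RNA in Δ*atpB* were -1.93, -1.93 and -1.91 for *psaI* and -2.96, -2.93 and -2.77 for *cemA*. A chloroplast share of 3.00% to 4.79% in Δ*atpB* footprints enters RPKM by construction. Against RB70, *psaI* footprints over RNA were -2.29 in Δ3'-*psbD*, -1.82 in Δ*psbJ*, -2.46 in Δ*petB*/*D*, -1.95 in Δ*petN* and -1.99 in Δ*atpB*, and 2.21 in Δ*psaB* against pRB8c. *psaI* footprints were -1.36 in Δ*petB*/*D*, -1.29 in Δ*psbJ*, -0.98 in Δ3'-*psbD* and -1.07 in Δ*petN*, where *psaI* RNA was 0.88. *cemA* footprints over RNA were 1.27 in Δ*psbJ* and 0.89 in Δ*petN*, and -2.06 in Δ*psaB* against pRB8c. RNA was -0.37 for *ycf4* and -0.55 for *cemA* in Δ*psbJ*, -0.082 for *ycf4* in Δ*petB*/*D* and -0.14 for *cemA* in Δ*petN*. The *cemA* to *ycf4* footprint ratio was 0.61 in Δ*psbJ* and 0.22 in Δ*petN*, and the *petA* to *cemA* footprint ratio -1.40 in Δ*petN*. In RNA the *ycf4* to *psaI* ratio was -0.92 in Δ*psbJ*, -1.23 in Δ*petB*/*D*, -0.81 in Δ*petN* and -1.22 in Δ*atpB*, and 1.58 in Δ*psaB* against pRB8c. The *petA* to *cemA* RNA ratio against RB70 was 0.39 in Δ*psbJ* and 0.42 in Δ*petN*. The cause was not tested. Scaled by library totals without TMM factors, as first planned (TMM levels were chosen after seeing the data), the highest over the lowest line mean was 10.1 for *psaI* and 5.65 for *ycf4* in footprints and 6.58 for *ycf4* and 9.67 for *cemA* in RNA. Depth limits *cemA* most, with 8 to 26 footprints in RB70 and Δ*psaB*.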
